A study of Mus musculus with 4 samples.

Results

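Immediate early genes are transcribed within minutes of a stimulus, without the synthesis of any new protein being needed first, and were measured here in mouse liver as a set of 10 listed symbols: Fos, Fosl2, Jun, Junb, Jund, Egr1, Ier2, Klf6, Dusp1 and Btg2. The members were taken as rows of the deposited expression table whose gene name was one of these symbols, which found 9 of 22849 symbols. Egr1 had no row of its own and appeared only in a row named jointly for Egr1 and Reep2. All 9 members passed the filter on low values that left 10786 symbols for the test. The study compared livers of male C57BL/6 mice, an inbred strain, that ate a high fat diet (60% fat) for 12 weeks. The vehicle group ate this diet alone, and the UAB126 group ate it with UAB126, a compound known here only by its code, at 1.2 g per kg of diet. Each group had 2 libraries, named vehicle replicates 1 and 2 and UAB126 replicates 1 and 2. Nothing in the sources used here gives the age of the mice or the time of day of collection. The labels number the libraries but name no animals, so the p-values reflect only how far these 4 samples spread, which may be technical.

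Fos and Jun family proteins pair through leucine zippers to form the transcription factor AP-1, which binds DNA as a dimer. Growth factors, cytokines and stress reach their genes through mitogen-activated protein kinases (MAP kinases), which act on serum response factor and its partners, on cAMP response element binding protein and on Jun itself. Their mRNAs decay fast, often through AU-rich elements in the tail of the transcript, so that a pulse of transcription ends quickly. In liver, Fos, Jun, Egr1 and Klf6 are known for their rise after partial hepatectomy and injury.

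Sequence features known from this class of genes were looked up for the members. The RefSeq promoter table (GRCm38.p6, 250 bases before to 50 after each start) held 8 of the 10 symbols. The core of the cAMP response element, TGACG on either strand, was present in 4 of the 8, Fos, Junb, Dusp1 and Btg2, and in 20.8% of the 32851 promoters of the table. The full palindrome TGACGTCA, which contains TGACG on both strands, was present in Dusp1 and Btg2 and in 1.79% of all promoters. The 3 promoters below are shown because Fos and Dusp1 had the widest spread between libraries among the members and because Btg2 holds the palindrome. Capitals mark TGACG on either strand.
Fos (chr12:85473640-85473939, plus strand): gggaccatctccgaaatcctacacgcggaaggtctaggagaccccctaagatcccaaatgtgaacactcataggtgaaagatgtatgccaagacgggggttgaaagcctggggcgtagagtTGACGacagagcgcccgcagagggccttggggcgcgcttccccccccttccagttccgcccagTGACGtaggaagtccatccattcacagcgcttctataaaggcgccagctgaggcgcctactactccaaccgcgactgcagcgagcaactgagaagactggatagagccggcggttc
Dusp1 (chr17:26508423-26508722, minus strand): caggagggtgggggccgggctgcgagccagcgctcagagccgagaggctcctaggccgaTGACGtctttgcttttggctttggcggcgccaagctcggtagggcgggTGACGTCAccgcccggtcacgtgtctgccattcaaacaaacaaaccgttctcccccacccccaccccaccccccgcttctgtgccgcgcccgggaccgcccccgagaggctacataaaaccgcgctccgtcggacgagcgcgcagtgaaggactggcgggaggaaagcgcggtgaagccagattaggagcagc
Btg2 (chr1:134079106-134079405, minus strand): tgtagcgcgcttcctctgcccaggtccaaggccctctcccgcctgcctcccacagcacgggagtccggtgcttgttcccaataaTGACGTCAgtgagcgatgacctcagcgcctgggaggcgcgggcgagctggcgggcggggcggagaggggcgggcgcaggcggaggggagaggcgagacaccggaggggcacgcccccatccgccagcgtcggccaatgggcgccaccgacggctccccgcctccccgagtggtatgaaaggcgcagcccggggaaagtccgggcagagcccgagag
In Fos the core nearest to the start lay 66 to 62 bases before it, upstream of the TATAAA sequence at 33 to 28 bases before the start. The palindrome lay 143 to 136 bases before the start of Dusp1 and 166 to 159 bases before that of Btg2. These are RefSeq starts, and the gene positions given with the values are those of GENCODE M21, whose outermost start lies 53656 bases from the RefSeq start for Dusp1, 1210 for Jund and 671 for Fosl2. Neither the CArG box of serum response factor (1.63% of all promoters) nor the AP-1 sequence TGANTCA (7.81%) was found in this window of any of the 8 members. Only these exact forms were searched, so variant forms and sites outside the window would be missed. CCAAT was present in Jun, Junb, Klf6 and Btg2 (37.4% of all promoters).

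The AU-rich pentamer ATTTA occurred in the 3′ untranslated region of 9 of the 10 listed genes, with Ier2 at 0, and in 68.5% of the 9497 tested genes with such a region (GENCODE M21, the transcript with the longest region per gene). The longer element TTATTTATT occurred once in Fos and in Fosl2 and at 2 places in Dusp1, and in 7.59% of tested genes. Dusp1 had 5.80 ATTTA per kilobase, Fos 4.91 and Junb 4.12, against a median of 1.28 over the tested genes. The stretch of 30 bases around the first TTATTTATT, in capitals, is shown for the 3 genes that hold it, since 2 of them, Fos and Dusp1, had the widest spread between libraries.
Fos: ttttcaatTTATTTATTaagatggattctc
Fosl2: ttattttaTTATTTATTttaaatgtttaca
Dusp1: gctggtccTTATTTATTtaacacccccctc
These matches describe the sequences and were not related to the values below by any test. The 4 members Jun, Junb, Jund and Ier2 each have a longest annotated transcript of 1 exon.

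No member passed the test for a difference between UAB126 and vehicle livers. Of 9 members, 0 had a limma adjusted p under 0.05, where 0.139% of all 10786 genes did, and the lowest adjusted p was 0.281, for Klf6. Klf6 was also the 1 member with an unadjusted p under 0.05 (13.4% of all genes). Both UAB126 libraries lay above both vehicle libraries in 1 member, Klf6, as in 22.7% of all genes. They lay below in 3 members, Fosl2, Junb and Jund, as in 26.9% of all genes. The median log2 difference of the 9 members, UAB126 minus vehicle, was -0.24, beside -0.03 over all genes tested. It was -0.02 without vehicle replicate 1. All differences are on the log2(FPKM + 1) scale, where FPKM is fragments per kilobase of transcript scaled to the mapped fragments of the library. This scale understates the change of genes near 1 FPKM.

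**Figure D1:**
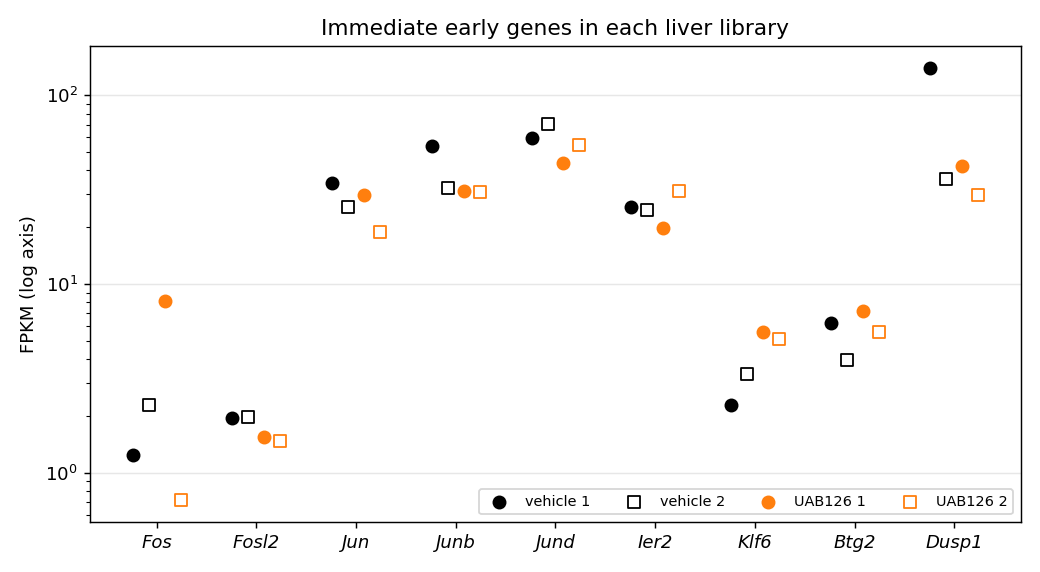
FPKM on a log axis of the 9 members in each library (black, vehicle; orange, UAB126; filled circles, replicate 1; open squares, replicate 2). Fos spans 0.718 to 8.12 FPKM within the UAB126 group, and Dusp1 stands at 140 FPKM in vehicle replicate 1 against 29.8 to 42.4 FPKM in the other libraries.

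The members fell into a high and a low tier of FPKM, a scale set per transcript length, so that genes can be compared. Dusp1 had a mean of 62.2 FPKM over the 4 libraries, Jund 57.0, Junb 37.1, Jun 27.2 and Ier2 25.2 FPKM. The ranges of neighbours in this order overlapped. Btg2 (5.75 FPKM), Klf6 (4.09), Fos (3.09) and Fosl2 (1.74) formed the low tier, and again the ranges of neighbours overlapped. The highest value of the low tier was 8.12 FPKM (Fos, UAB126 replicate 1). It lay below the lowest value of the high tier, 18.8 FPKM (Jun, UAB126 replicate 2). In bulk liver, fewer cells of a type and less RNA per cell cannot be told apart.

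Among the Fos family, Fos, the inducible founding member and a partner of Jun in AP-1 (chromosome 12, 85473890 to 85477273 of mm10 in GENCODE M21, as for the positions that follow), differed more within the UAB126 group than between the groups. Vehicle replicates 1 and 2 had 1.24 and 2.28 FPKM, and UAB126 replicates 1 and 2 had 8.12 and 0.718 FPKM. The UAB126 libraries were thus both the highest and the lowest of the 4, and the groups overlapped. This gave a log2 difference of 0.55 ± 0.78 (limma's moderated SE, n = 2 per group), with a 95% interval from -1.42 to 2.51 and a limma adjusted p of 0.761. Without UAB126 replicate 1 it was -0.66, and without UAB126 replicate 2 it was 1.75. The gap between the UAB126 libraries, 2.41 on the log2 scale, was wider than that of 99.4% of all genes tested. By an estimate read from the steps of low values, UAB126 replicate 1 was the deepest library. The estimated depth relative to it was 0.691 and 0.404 in vehicle replicates 1 and 2 and 0.703 in UAB126 replicate 2. Of the low rows used, only 14.9%, 9.0% and 15.5% lay at the ratio behind these 3 estimates.

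Fosl2, a more slowly induced relative of Fos (chromosome 5, 32135801 to 32157842), measured 1.96 and 1.98 FPKM in the vehicle libraries against 1.55 and 1.48 FPKM in the UAB126 libraries. Its libraries agreed closely within each group and the groups did not overlap. The log2 difference of -0.24 ± 0.20 did not pass (limma adjusted p = 0.588, 95% interval -0.75 to 0.27). The fit draws the spread of a gene partly from genes of similar level, so 2 close libraries alone do not make a call.

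The Jun family holds the partners of Fos proteins in AP-1. Junb, often an antagonist of Jun (chromosome 8, 84974484 to 84978718), had 53.8 and 32.5 FPKM in vehicle livers, and 31.3 and 30.9 FPKM in livers with UAB126. Vehicle replicate 1 was high, and the other 3 libraries lay between 30.9 and 32.5 FPKM. Its difference on the log2 scale was -0.42 ± 0.28 (limma adjusted p = 0.516, 95% interval -1.13 to 0.30), -0.06 without vehicle replicate 1 and -0.77 without vehicle replicate 2. The outermost GENCODE end of Junb overlaps Prdx2, a peroxiredoxin gene on the opposite strand, by 351 bases. The GENCODE span of Junb is longer than its longest annotated transcript, of 1 exon and 1809 bases, so the overlap need not reach that transcript. No source used here gives the strand setting of the counting. Prdx2 gave 138.7 and 197.7 FPKM in the vehicle group and 91.5 and 119.2 FPKM in the UAB126 group, and reads in the shared part cannot be told apart. On the opposite strand, Jun overlaps Junos by 689 bases, Jund overlaps Gm11175 by 919 bases, and the outermost GENCODE start of Dusp1 overlaps Ergic1 by 640 bases, outside the locus that the deposited table gives for Dusp1. Ergic1 had 73.8 and 44.6 FPKM in vehicle livers, against 71.6 and 51.5 FPKM in the UAB126 group. The deposited table places Junb, Jund, Ier2 and Dusp1 in joined loci of 238.8, 238.5, 150.6 and 93.5 kb that hold other genes with rows of their own.

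Jund, the constitutive member of the family (chromosome 8, 70698949 to 70700616), measured 59.3 and 70.4 FPKM in the vehicle libraries against 43.7 and 54.6 FPKM in the UAB126 libraries. Both UAB126 libraries lay below both vehicle libraries. The log2 difference was -0.40 ± 0.22 (limma adjusted p = 0.462, 95% interval -0.96 to 0.17). It was -0.16 with the trend of each library with transcript length removed and -0.19 after quantile normalization. Junb went to -0.21 and -0.27 under these settings. Junb, Jund and Ier2 have short transcripts (1809, 1668 and 1522 bases), and the 975 tested genes of 1322 to 1858 bases had a median log2 difference of -0.21. Within the groups, the median of replicate 2 minus replicate 1 over the same genes was 0.21 in vehicle and 0.25 with UAB126.

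Jun, which can pair with itself or with Fos proteins (chromosome 4, 95049034 to 95052222), had 34.5 and 25.7 FPKM in vehicle livers, and 29.7 and 18.8 FPKM in livers with UAB126. The groups overlapped, and replicate 2 was the lower library in each. This gave a log2 difference of -0.32 ± 0.29 (limma adjusted p = 0.613, 95% interval -1.05 to 0.41), -0.64 without UAB126 replicate 1 and -0.01 without UAB126 replicate 2. Summed over Jun, Junb and Jund, the Jun family gave 147.6 and 128.6 FPKM in the vehicle group and 104.7 and 104.3 FPKM in the UAB126 group. Fos and Fosl2 together measured 3.20 and 4.26 FPKM in the vehicle libraries against 9.665 and 2.199 FPKM in the UAB126 libraries. Jun family FPKM exceeded Fos family FPKM by 46.1 and 30.2 times in vehicle and by 10.8 and 47.5 times with UAB126, with the lowest ratio in the library where Fos was high. The sums were formed after the values were seen and carry no test.

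Klf6, a zinc finger transcription factor of the Krüppel-like family (chromosome 13, 5861482 to 5870394), had the lowest p of the members. It had 2.29 and 3.35 FPKM in vehicle livers, and 5.59 and 5.13 FPKM in livers with UAB126. The groups did not overlap. Its difference on the log2 scale was 0.75 ± 0.22, with a 95% interval from 0.21 to 1.29, an unadjusted p of 0.0158 and a limma adjusted p of 0.281. It kept its sign in each of 10 alternatives, between 0.55 and 0.95, and its adjusted p ran from 0.143 to 0.922.

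**Figure D2:**
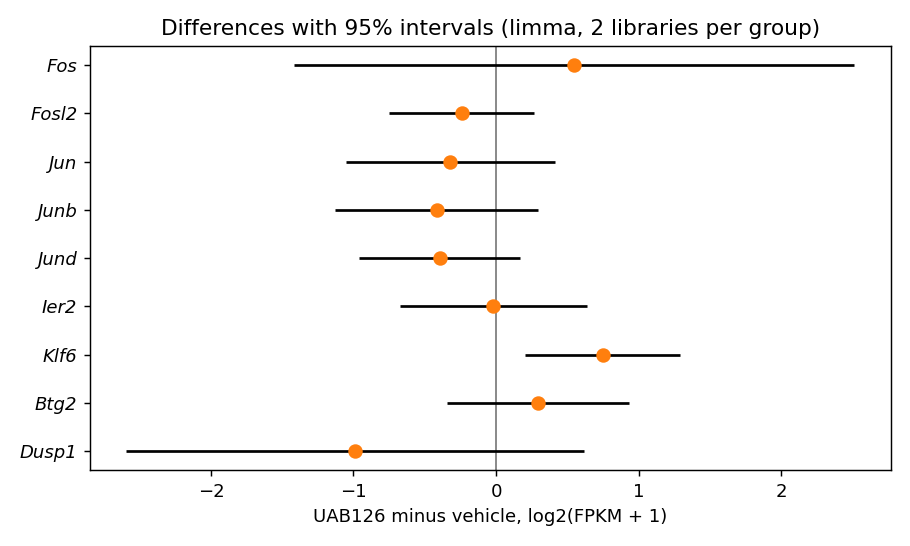
Log2 difference of each member, UAB126 minus vehicle, on the log2(FPKM + 1) scale (points), with limma's 95% interval (lines). The interval of Klf6 (0.21 to 1.29) lies above 0, those of the other 8 members include 0, and those of Fos and Dusp1 are the widest.

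Dusp1, a phosphatase that inactivates MAP kinases and so ends the signal that induces immediate early genes (chromosome 17, 26505590 to 26562128), gave 140 and 36.2 FPKM in the vehicle group and 42.4 and 29.8 FPKM in the UAB126 group. Vehicle replicate 1 was far above the other 3 libraries, and UAB126 replicate 1 lay above vehicle replicate 2, so the groups overlapped. The log2 difference was -0.99 ± 0.64 (limma adjusted p = 0.499, 95% interval -2.59 to 0.62). Without vehicle replicate 1 it was -0.02, and without vehicle replicate 2 it was -1.95, with a limma adjusted p of 0.0962. The gap between the vehicle libraries, 1.93 on the log2 scale, was wider than that of 98.6% of all genes tested. Fos and Dusp1 thus had their wide gaps in different groups.

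Btg2, an antiproliferative gene that p53 induces and whose protein promotes mRNA deadenylation (chromosome 1, 134075170 to 134079120), measured 6.22 and 3.98 FPKM in the vehicle libraries against 7.22 and 5.58 FPKM in the UAB126 libraries. The groups overlapped, and replicate 2 was the lower library in each. This gave a log2 difference of 0.29 ± 0.25 (limma adjusted p = 0.597, 95% interval -0.34 to 0.93), 0.56 without vehicle replicate 1 and 0.03 without vehicle replicate 2. Ier2, which encodes a nuclear protein of growth factor responses (chromosome 8, 84661331 to 84662852), had 25.6 and 24.6 FPKM in vehicle livers, and 19.7 and 31.0 FPKM in livers with UAB126. Both vehicle libraries lay between the UAB126 libraries. Its log2 difference of -0.02 ± 0.26 (limma adjusted p = 0.981, 95% interval -0.67 to 0.64) turned to 0.26 with the length trend removed and to 0.07 after quantile normalization.

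The row named for Egr1 and Reep2 together gave 31546 and 28009 FPKM in the vehicle group and 15622 and 4754 FPKM in the UAB126 group. By its mean it ranked 21 of 22849 symbols, far above any member and a doubtful level, while the row of Reep2 alone was at 0.249 FPKM or lower in every library. Egr1 encodes a zinc finger factor of the immediate early response. The value of this row cannot be divided between the genes it names, and no level of Egr1 is given.

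**Figure D3:**
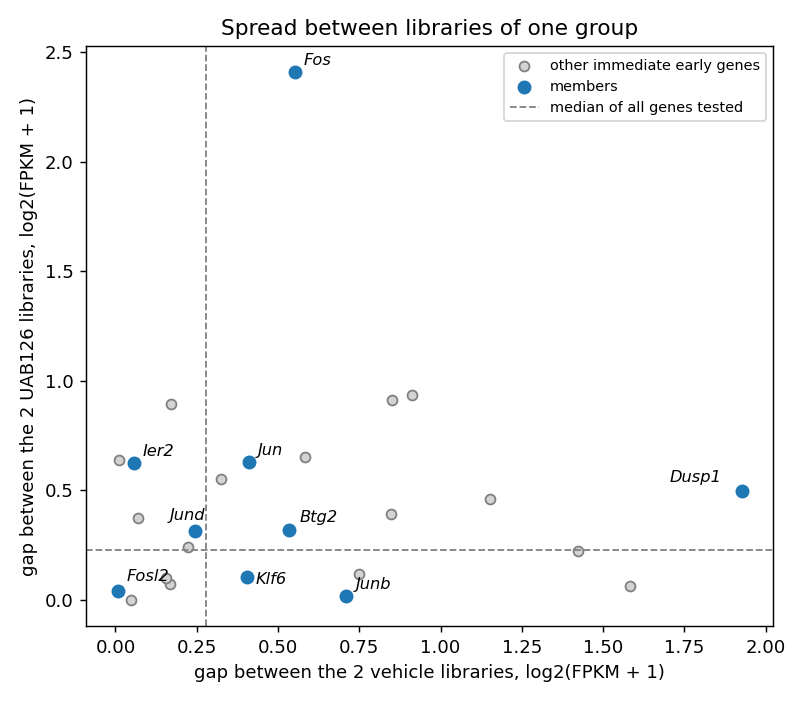
Absolute gap between the 2 vehicle libraries (x axis) and between the 2 UAB126 libraries (y axis) on the log2(FPKM + 1) scale, for the 9 members (blue) and 16 other immediate early genes (grey), with the medians of all genes tested as dashed lines (0.28 and 0.23). Fos lies at 2.41 in the UAB126 group and Dusp1 at 1.93 in the vehicle group.

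A list of 25 further genes of this kind had 16 that passed the filter, of which 0 passed the test and 4 had an unadjusted p under 0.05 (13.4% of all genes; lowest limma adjusted p = 0.193). Both UAB126 libraries were above both vehicle libraries in 5 of the 16 and below in 2, beside 22.7% and 26.9% of all genes, and the median log2 difference was 0.10. This median was -0.08 without UAB126 replicate 2 and 0.32 without vehicle replicate 1. The median gap between libraries was 0.45 in vehicle and 0.38 with UAB126 on the log2 scale, beside 0.28 and 0.23 over all genes tested.

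Atf3, a stress-induced factor that can pair with Jun proteins, had the largest difference of that list. It measured 1.38 and 1.98 FPKM in the vehicle libraries against 4.88 and 7.64 FPKM in the UAB126 libraries, a log2 difference of 1.42 ± 0.26 (limma adjusted p = 0.193). Ctgf, which encodes a matrix-associated growth factor, was at 3.002 and 2.427 against 5.45 and 6.63 FPKM, and Ier5 at 1.59 and 1.67 against 3.14 and 3.14 FPKM. Nr4a1, an orphan nuclear receptor gene, had 4.51 and 2.27 FPKM in vehicle livers, and 1.20 and 1.03 FPKM in livers with UAB126, a log2 difference of -1.01 (limma adjusted p = 0.301). Atf3, Ctgf and Ier5 lay higher and Nr4a1 lower in both UAB126 libraries, and none of the 4 passed.

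Some genes were singled out after their values were seen, for the library in which they were highest. Fosb, a further Fos family gene, gave 0.101 and 0.0575 FPKM in the vehicle group and 0.790 and 0.149 FPKM in the UAB126 group. Egr2 measured 0.158 and 0.154 FPKM in the vehicle libraries against 0.546 and 0.155 FPKM in the UAB126 libraries. Like Fos, both were highest in UAB126 replicate 1, but each was below the filter and was not tested. Klf10, an immediate early Krüppel-like gene, had 27.7 and 8.56 FPKM in vehicle livers, and 9.93 and 10.4 FPKM in livers with UAB126. Csrnp1 gave 7.44 and 2.15 FPKM in the vehicle group and 3.76 and 4.55 FPKM in the UAB126 group. Like Dusp1, Junb and Jun, Klf10 and Csrnp1 were highest in vehicle replicate 1. Of the 16 tested genes of the list, 5 were highest in vehicle replicate 1, 3 in vehicle replicate 2, 2 in UAB126 replicate 1 and 6 in UAB126 replicate 2. Over all 10786 genes tested, these counts were 1920, 3972, 2617 and 2277. Atf3, Myc, Maff, Gadd45b and Ctgf were among the listed genes highest in UAB126 replicate 2. Of the 9 members, 5 were lowest in that library (Fos, Fosl2, Jun, Junb and Dusp1), and Ier2 was highest there. Of the 16 tested genes of the list, 4 were lowest there, beside 1803 of all 10786 genes tested. Zfp36, which encodes a protein that binds AU-rich elements, stayed between 139.9 and 157.2 FPKM in the 4 libraries.

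Of 9 further dual specificity phosphatases, relatives of Dusp1, 4 passed the filter and 0 the test. Of the 4, 0 had an unadjusted limma p under 0.05, beside 13.4% of all genes (lowest limma adjusted p = 0.566). Dusp6, which also acts on MAP kinases, measured 14.3 and 22.5 FPKM in the vehicle libraries against 25.2 and 20.9 FPKM in the UAB126 libraries. Dusp16, Dusp10 and Dusp7 had log2 differences of 0.20, -0.22 and 0.19. None of these 4 was highest in vehicle replicate 1, where Dusp1 and 1920 of all 10786 genes tested were.

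Of 25 listed kinases and factors that act upstream of immediate early genes, 24 passed the filter and 0 the test, with a median log2 difference of 0.08. Of the 24, 3 had an unadjusted limma p under 0.05, beside 13.4% of all genes (lowest limma adjusted p = 0.322). Both UAB126 libraries were higher in 8 and lower in 3 of the 24, beside 22.7% and 26.9% of all genes. Elk3, a partner of serum response factor, had 1.41 and 1.41 FPKM in vehicle livers, and 2.99 and 2.44 FPKM in livers with UAB126. Map2k3, a kinase upstream of p38, was at 43.4 and 43.8 FPKM against 29.4 and 32.6 FPKM. Mkl1 and Elk1, also partners of serum response factor, had log2 differences of 0.60 and 0.51.

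Among other proteins that can pair in AP-1, 7 of 10 listed genes passed the filter and 0 the test. Of the 7, 1 had an unadjusted limma p under 0.05, beside 13.4% of all genes (lowest limma adjusted p = 0.269). Maf gave 10.2 and 11.9 FPKM in the vehicle group and 24.82 and 18.01 FPKM in the UAB126 group, a log2 difference of 0.88 ± 0.23. Jdp2, a Jun-binding repressor, was at 0.531 and 1.59 against 1.96 and 2.39 FPKM, and Atf7 had a log2 difference of 0.38. Batf3 measured 1.18 and 6.34 FPKM in the vehicle libraries against 1.17 and 1.52 FPKM in the UAB126 libraries, high in vehicle replicate 2 only. The log2 difference of Batf3 was -0.77, and -1.65 without vehicle replicate 1, where the high library stood alone for vehicle.

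Relatives of Klf6 and Btg2 had the highest median of the lists, 0.65 on the log2 scale over 9 tested genes of 14 listed. This median was 0.41 to 0.81 when each library was left out in turn. Klf2, Klf4 and Klf10 were not in this list, since they stood among the other immediate early genes. There Klf10 and Klf2 had log2 differences of -0.57 and 0.16 with overlapping groups, and Klf4 was not tested. The UAB126 pair was higher in 7 of the 9 tested relatives and lower in 0, beside 22.7% and 26.9% of all genes. Of the 9, 0 passed the test and 5 had an unadjusted limma p under 0.05, beside 13.4% of all genes (lowest limma adjusted p = 0.249). Klf3 had 10.5 and 8.36 FPKM in vehicle livers, and 18.9 and 16.5 FPKM in livers with UAB126, a log2 difference of 0.84 ± 0.20. Klf13 was at 7.87 and 6.80 against 13.0 and 12.4 FPKM. Klf11 was at 3.47 and 1.85 against 5.52 and 5.12 FPKM, a log2 difference of 0.82, and of 1.15 without vehicle replicate 1. Btg1, the closest relative of Btg2 in the list, was at 14.0 and 9.20 against 21.4 and 16.7 FPKM.

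**Figure D4:**
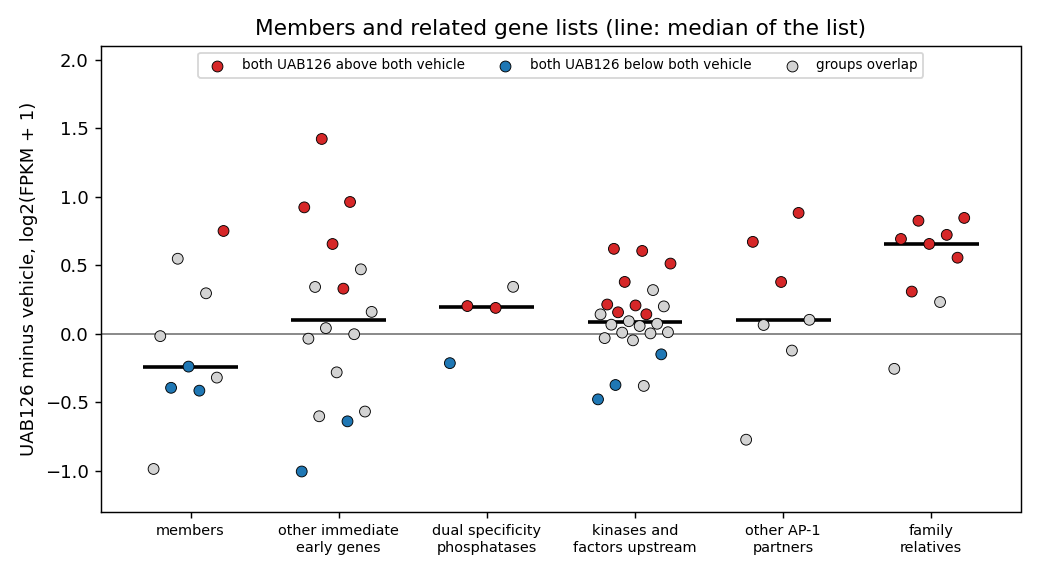
Log2 difference, UAB126 minus vehicle, on the log2(FPKM + 1) scale for the tested genes of each list (points; red, both UAB126 libraries above both vehicle libraries; blue, below; grey, overlap) and the median of each list (line). The members have a median of -0.24 and the family relatives of 0.65.

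Of 10 hepatocyte markers, 2 were higher and 5 lower in both UAB126 libraries than in both vehicle libraries, beside 22.7% and 26.9% of all genes. Without Alb, which was listed at 0 in 3 libraries and is a doubtful entry, they summed to 70184 and 100270 FPKM in vehicle and to 38897 and 55448 FPKM with UAB126, so the groups did not overlap. Most of each sum came from Ttr, Apoa1 and Fgb, while the groups overlapped for Apob and Cps1. Ttr, which carries thyroid hormone, was at 34335 and 44092 FPKM against 19625 and 25328 FPKM, while the hepatocyte transcription factor gene Hnf4a was at 123.0 and 121.3 against 160.7 and 176.6 FPKM and Tat, an amino acid catabolism gene, at 392.6 and 513.0 against 1118 and 1431 FPKM. The summed FPKM of 10 Kupffer cell and macrophage markers of 11 listed was 115.4 and 347.6 in vehicle and 237.1 and 315.5 with UAB126, and none of them was at 0. This sum was lowest in vehicle replicate 1, as were the endothelial, neutrophil, stellate and mesenchymal, and T, B and NK cell sums that follow. Of these 10 markers, 3 were higher and 0 lower in both UAB126 libraries, beside 22.7% and 26.9% of all genes. Endothelial markers (7 of 8 found) summed to 65.4 and 108.8 FPKM in vehicle and to 106.5 and 123.1 FPKM with UAB126. Neutrophil markers (6 of 7 found) summed to 1.51 and 32.9 FPKM in vehicle and to 3.31 and 3.85 FPKM with UAB126, and S100a8, Mpo, Elane and Retnlg were each listed at 0 in at least 1 library. Stellate and mesenchymal markers (6 of 7 found) summed to 132.3 and 166.7 FPKM in vehicle and to 149 and 144.7 FPKM with UAB126. The groups did not overlap for 3 further lists. T, B and NK cell markers (7 of 7 found, Nkg7 at 0 in at least 1 library) summed to 2.26 and 3.297 FPKM in vehicle against 3.66 and 6.96 FPKM, cholangiocyte markers (5 of 5) to 70.9 and 56.3 against 54.5 and 54.7 FPKM, and the 1 blood marker found of 5, Alas2, was at 163.9 and 189.1 against 59.8 and 70.8 FPKM. Most of the cholangiocyte sum was Spp1, whose groups overlapped (62.7 and 47.2 FPKM in vehicle against 47.3 and 48.6 FPKM with UAB126). Of the 5 cholangiocyte markers, only Sox9 was lower in both UAB126 libraries than in both vehicle libraries. The part of these cells and of library depth in the members' values was not tested.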

How the data were processed

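PolyA-selected liver RNA was sequenced from both ends, per the labels' protocols. Cufflinks 2.2.1 and Cuffdiff, STAR 2.5.1b, Trim Galore 0.4.1 and build mm10 are named in the submitters' processing notes; no source used here gives the annotation or settings. The authors deposited FPKM values, 1 column per library, so the depth behind a value is unknown and no count test was run. Of 27216 rows, 3634 without a symbol were left out. Rows sharing a symbol were summed, and rows naming several genes kept their joint name and were no member.

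The 10786 symbols whose mean reached 1 FPKM were tested as log2(FPKM + 1) with limma 3.58.1 in R 4.3.3 (group as the sole term, eBayes trended on intensity, two-sided, Benjamini-Hochberg adjusted over all symbols, threshold 0.05). With 2 libraries per group, exact permutation could not pass that threshold. The fit was tested on simulated data. Relative depth is the most frequent ratio to UAB126 replicate 1 over rows under 0.3 FPKM in both libraries. Lengths, positions and overlaps came from GENCODE M21 (GRCm38, the assembly also called mm10). All members were named, and from each list up to 4 genes with the smallest unadjusted p. The members and lists were chosen with earlier results of these data known. Other values were computed with Python 3.11.15, pandas 2.3.3 and numpy 2.4.6. The values of 1 listed kinase gene are not reported here.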

Additional observations from a re-analysis of the deposited data

How the results depend on the processing

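The count of members past the threshold was 0 in each of 11 alternatives, with a lowest limma adjusted p of 0.0962, for Dusp1 without vehicle replicate 2. The count over all genes, 15, was 26 with the length trend removed, 27 with a pseudocount of 0.1, 24 after quantile normalization and 0 with no filter on low values (1764 with an unadjusted p under 0.05), and ran from 0 to 442 over the fits without 1 library: 442 without replicate 1 and 56 without replicate 2 of vehicle, and 14 and 0 (737 with an unadjusted p under 0.05) without replicates 1 and 2 of UAB126. The split of higher and lower calls, 5 and 10, was 16 and 10 with the length trend removed, 12 and 12 after quantile normalization, 12 and 15 with the pseudocount of 0.1, 108 and 334 without vehicle replicate 1, 20 and 36 without vehicle replicate 2, and 14 and 0 without UAB126 replicate 1. With the replicate number as a block it was 148 genes, 38 higher and 110 lower, and 0 members. Same-numbered libraries deviated together with a correlation of 0.178 across genes, but with 2 pairs and no label of a shared source the number is no pairing. The median log2 difference of the members, -0.24, was -0.16 with the length trend removed, -0.36 at a mean of at least 5 FPKM (6 members), -0.33 with the pseudocount of 0.1, -0.19 after quantile normalization, and -0.26 to -0.024 when each library was left out in turn. The sign turned for Fos without UAB126 replicate 1 (-0.66 to 1.75 over the fits without 1 library). For Ier2 it turned with the length trend removed (0.26), after quantile normalization (0.073), and without vehicle replicate 1 or UAB126 replicate 1 (-0.33 to 0.29 over the fits without 1 library). The cause was not tested. Fits without 1 library assume that the lone library of a group varies like the other group. With 2 libraries per group the 95% intervals of the members were 1.02 (Fosl2) to 3.93 (Fos) wide on the log2 scale, which limits the size of difference that could be detected.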
